A study of Mus musculus with 8 samples.

Results

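The genes described here are targets of the tumour suppressor p53, measured in pre-neoplastic mouse epidermis with and without the histone methyltransferase G9a. A list of 40 names was searched among the probe sets of the expression table, and 33 genes were found, out of 17097 genes measured in all. The other 7 names are not analysed here, among them Ccnd1-as, Ercc5-as and Tap1-as, and so is the transcript of p53 itself. Each of the 33 genes was represented by its probe set with the highest mean over all arrays, and all 58 of their probe sets were also tested one by one. Measured levels thus chose the probe set of each gene, without regard to genotype, and the list of names was proposed with earlier results of these arrays in view.

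p53 is a transcription factor that accumulates when DNA is damaged, because the ubiquitin ligase MDM2 then no longer drives its degradation. It switches on genes that halt the cell cycle, repair DNA, adjust metabolism or start apoptosis, and it also switches on Mdm2, which closes a negative feedback loop. In skin treated with DMBA, a polycyclic hydrocarbon whose metabolites form bulky DNA adducts, this response is one of the routes by which damaged keratinocytes stop dividing or die. G9a, encoded by Ehmt2, methylates lysine 9 of histone H3 and is also known to methylate p53 protein.

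The arrays compared epidermis taken from between the hair follicles (interfollicular epidermis) of G9a cKO and G9a WT animals, with 4 arrays in each group. Per the labels, all 8 samples had the same treatment: 200 µl each of DMBA (0.25 mg/ml) and the tumour promoter TPA (0.02 mg/ml) on shaved back skin, once a week over 6 weeks, begun when the mice were 8 weeks of age, with tissue labelled as from animals 15 weeks old. No group without treatment was analysed here, so that the values bear on the difference between genotypes and not on the response to DMBA and TPA. The labels name neither the strain, nor the Cre line, nor the deleted part of Ehmt2, and do not say whether each array is 1 animal, so that p-values measure only the spread between these samples, which may be technical. All levels below are log2 expression values as the authors' RMA processing gave them, where 1 unit is a doubling. Changes are cKO minus WT.

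The genotype labels were borne out at 1 of the Ehmt2 probe sets, which read 6.61 ± 0.36 in cKO and 9.49 ± 0.28 in WT (SD, n = 4 each; limma adjusted p = 0.000244; exact two-sided permutation p = 0.0286, the smallest that 4 against 4 arrays allow), while the other read 8.36 ± 0.06 and 8.35 ± 0.12 (exact p = 0.886). The keratinocyte markers Krt14 (12.83 to 12.90) and Krt10 (12.14 to 12.28) were high on every array. Not all keratinocyte markers were, since Lor read 7.02 to 7.85 and Ivl 7.42 to 8.31. Of the 11 measured leukocyte markers, Cd74 (7.26 to 9.16) and H2-Aa (7.65 to 9.11), both of antigen presentation, were well above the other 9, such as Ptprc at 3.40 to 3.63. Of the 8 fibroblast markers, Fbln1 read 8.30 to 9.15 and the other 7 lay lower, such as Col1a1 at 5.14 to 5.64. The endothelial marker Pecam1 read 5.34 to 5.64. Whether the low levels lie above background was not tested. Over all genes 2 arrays stood apart from their groups: on the first principal component WT 4 lay at 7.37, among the cKO arrays, while the other WT arrays lay at -14.7 to -10.02, and cKO 2 lay at -0.89, below the other cKO arrays at 3.40 to 12.7. These 2 arrays lay at opposite ends of the second component, at -16.3 and 14.2. Results that rest on these arrays are therefore given with and without them. The 2 arrays were picked from these same values for lying off their groups, so leaving them out favours separation of the genotypes. Without them 2.55% of all genes passed, against 0.977% with all arrays (limma adjusted p under 0.05).

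None of the 33 p53 target genes passed the test over all genes (limma, Benjamini-Hochberg adjusted p under 0.05), in either direction, where 0.977% of all genes did (0.79% higher and 0.187% lower). The furthest were the dicarbonyl and L-xylulose reductase gene Dcxr (adjusted p = 0.0944), the death receptor gene Eda2r (0.0963) and the spindle protein gene Psrc1 (0.139). At an adjusted p under 0.1 Dcxr and Eda2r would pass, as 1.64% of all genes did. With single arrays left out, the count was 1 without cKO 1 (0.807% of all genes) and without WT 4 (1.46%), and 0 without cKO 2 (0.573%), cKO 3 (0.474%), cKO 4 (0.889%), WT 1 (0.515%), WT 2 (0.772%) and WT 3 (0.491%). At an unadjusted p under 0.05 there were 8 genes higher in cKO, against 6.12% of all genes, and 0 lower, against 3.22%. All 4 cKO arrays lay above all 4 WT arrays at 3 of the 33, the same Dcxr, Eda2r and Psrc1, where this held for 3.8% of all genes, and at none did they lie below, where this held for 1.92%. Among all genes the calls were 135 higher and 32 lower, or 118 and 53 after each array was centred on its median.

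The differences were small and mostly on the positive side. Of the 33 genes, 27 had a change above 0, with a median of 0.07, where 54.8% of all genes did, with a median of 0.01. After centring each array on its median, which shifts the change of every gene by the same amount, the count was 23 (36.1% of all genes), the median 0.03 and the median of all genes -0.02. Without both cKO 2 and WT 4 the count was 21 (57.3% of all genes), with a median of 0.05 against 0.02 for all genes. Without WT 4 alone it was also 21 (54.8% of all genes), with a median of 0.05 against 0.01. Without any other single array it was 23 to 26. Changes ran from -0.17 for Plk2 to 0.42 for Eda2r. The 95% interval of the change lay within 0.5 of 0 at 31 of the 33 genes and within 1 of 0 at all 33, so that a doubling or a halving lay outside every interval.

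**Figure D1:**
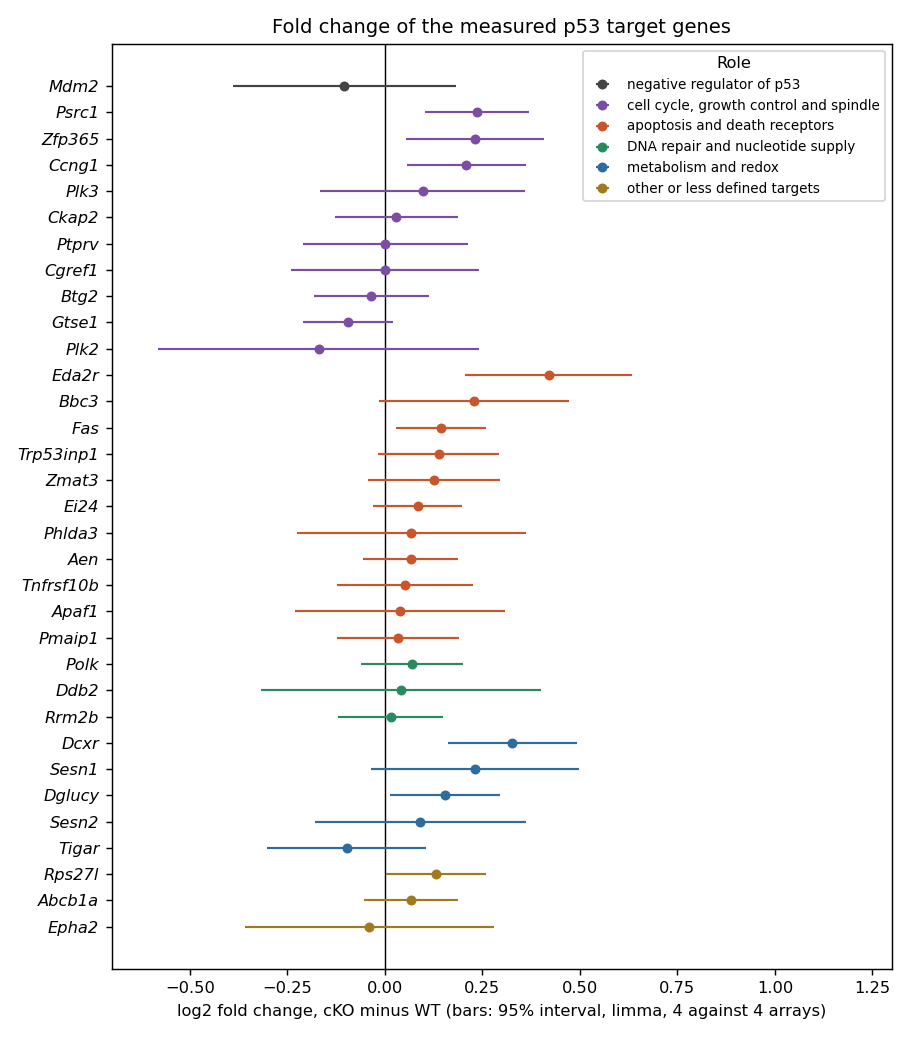
Change of each of the 33 measured p53 target genes (points; log2, cKO minus WT) with its 95% interval from limma (bars; 4 against 4 arrays), grouped by role. Most points lie to the right of 0 and within 0.25 of it, with Eda2r at 0.42 and Dcxr at 0.33 furthest to the right and Plk2 at -0.17 furthest to the left.

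To show what p53 could bind near these genes, promoter windows from RefSeq (build GRCm38.p6, 250 bases before to 50 after a start site) were searched on both strands for the consensus decamer of the p53 response element. Windows were found for 26 of the 33 genes. Ptprv, Pmaip1, Tnfrsf10b, Trp53inp1, Zmat3, Ddb2 and Rrm2b had no window to search. The decamer was present in 10 of the 35 windows (28.6%), belonging to 9 genes, and in 2745 of all 32851 mouse windows (8.36%). A pair of decamers no more than 13 bases apart, the form of a full response element, was in 0 of the 35 windows and in 24 of all windows. Only exact matches to the consensus were counted, so that a response element with a mismatched base would have been missed. The windows of Eda2r, Dcxr and Psrc1 did not hold these letters. A match describes the letters and is not evidence of binding, and many known p53 sites lie outside such windows, in first introns for example.

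The first 3 windows below are those of the genes used as examples in the results: the feedback regulator Mdm2, the long-known target Ccng1, and Rps27l, whose window holds the decamer 2 times. Capitals mark the decamer. The Mdm2 window is chr10:117710709-117711008 on the minus strand, that of Ccng1 chr11:40755237-40755536 on the minus strand and that of Rps27l chr9:66946163-66946462 on the plus strand.
Mdm2: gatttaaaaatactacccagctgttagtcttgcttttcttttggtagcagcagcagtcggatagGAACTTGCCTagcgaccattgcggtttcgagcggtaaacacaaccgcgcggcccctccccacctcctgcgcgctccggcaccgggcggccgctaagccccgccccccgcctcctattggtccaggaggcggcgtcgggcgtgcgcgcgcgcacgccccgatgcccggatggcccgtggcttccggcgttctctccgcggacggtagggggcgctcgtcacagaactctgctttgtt
Ccng1: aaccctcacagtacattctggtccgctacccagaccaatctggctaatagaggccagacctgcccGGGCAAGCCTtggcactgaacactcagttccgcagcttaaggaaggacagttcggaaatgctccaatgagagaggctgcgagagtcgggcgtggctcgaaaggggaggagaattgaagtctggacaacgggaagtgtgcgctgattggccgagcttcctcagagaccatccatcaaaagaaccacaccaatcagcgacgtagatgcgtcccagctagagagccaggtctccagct
Rps27l: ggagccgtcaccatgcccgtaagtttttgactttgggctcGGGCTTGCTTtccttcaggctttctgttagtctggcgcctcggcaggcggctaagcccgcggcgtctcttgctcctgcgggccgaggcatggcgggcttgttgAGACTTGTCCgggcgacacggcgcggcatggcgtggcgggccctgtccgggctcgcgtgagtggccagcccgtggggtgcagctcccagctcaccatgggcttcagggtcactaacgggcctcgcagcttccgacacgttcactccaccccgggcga
The decamers in the other windows were as follows, shown to compare their core letters.
Aen: GGGCTTGTCC
Ckap2: AGACATGTCC
Ei24: GGGCATGCCC
Gtse1: GGGCTTGCCT
Polk: GAACTAGCCT
Sesn1: AAGCTTGTTT
The decamer of Ei24 began at position -10 relative to the annotated start and that of Gtse1 at 9, while those of Mdm2 and Ccng1 began at positions -186 and -185 relative to it. The 2 windows of Aen overlap and share 1 decamer.

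Mdm2, the gene of the ubiquitin ligase that keeps p53 low and is itself switched on by p53, did not pass the test over all arrays. It read 9.96, 10.18, 9.86 and 9.83 on cKO arrays 1 to 4 and 10.14, 10.19, 10.24 and 9.67 on WT arrays 1 to 4. The groups overlapped only through cKO 2, which lay among the high WT arrays, and WT 4, which was the lowest of all. The change was -0.10 (SE 0.13, 95% interval -0.39 to 0.18, limma adjusted p = 0.918), and its second probe set stood at -0.09. Without both cKO 2 and WT 4 Mdm2 was lower in cKO by 0.31 (-0.31, SE 0.06, limma adjusted p = 0.0321), a setting in which 2.55% of all genes passed. Since the arrays left out are those through which the groups overlapped, this p-value is not independent support for a difference. Leaving out 1 array at a time, the change ran from -0.23 to -0.04 and did not pass.

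Cdkn1a, which encodes the cyclin-dependent kinase inhibitor p21 and is the classical p53 target of cell cycle arrest, is not among the 33 genes but is the usual yardstick of the response. It read 12.10, 12.07, 12.01 and 11.90 in cKO and 12.04, 12.01, 12.04 and 11.84 in WT. The groups overlapped, with WT 4 the lowest and cKO 4 the next. The change was 0.04 (SE 0.06, 95% interval -0.10 to 0.18, limma adjusted p = 0.947), and it was -0.03 without both cKO 2 and WT 4. Its other probe set stood at 0.09.

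Of the 10 measured genes of cell cycle, growth control and the spindle, 7 lay above 0 and 3 below, and none passed (median 0.02). Psrc1, whose product binds microtubules of the mitotic spindle and was found as a p53-responsive gene in mouse, read 8.47, 8.56, 8.64 and 8.58 in cKO against 8.32, 8.39, 8.20 and 8.41 in WT. The groups did not overlap, but the lowest cKO array and the highest WT array were close. The change was 0.24 (SE 0.06, limma adjusted p = 0.139). Its other probe sets stood at 0.20 and 0.07, and the representative one carries the suffix _s_at, which marks probes that related transcripts may share. The representative probe sets of Cgref1, Tnfrsf10b, Ddb2 and Sesn1 carry this suffix too.

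Ccng1, the gene of cyclin G1, which recruits a phosphatase to MDM2, read 9.87, 10.04, 9.90 and 9.97 in cKO and 9.66, 9.92, 9.70 and 9.66 in WT. WT 2 alone reached into the cKO range. The change was 0.21 (SE 0.07, 95% interval 0.06 to 0.36, limma adjusted p = 0.316), with the other 2 probe sets at 0.25 and 0.27. Without WT 2 it was 0.27 and still missed the threshold (limma adjusted p = 0.0771). With single arrays left out the change ran from 0.18 to 0.27 and did not pass. Without both arrays that stood apart it was 0.15 (SE 0.08, 95% interval -0.02 to 0.33, limma adjusted p = 0.350).

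Zfp365, whose human counterpart is a p53 target that guards replication forks and telomeres, read 6.49, 6.60, 6.68 and 6.45 in cKO and 6.37, 6.46, 6.34 and 6.13 in WT. Only the lowest cKO array and WT 2 overlapped. The change was 0.23 (SE 0.08, limma adjusted p = 0.348) and 0.15 without both cKO 2 and WT 4. The remaining 7 genes of this role ranged from -0.17 to 0.10. They were the antiproliferative gene Btg2, the mitotic genes Gtse1 and Ckap2, the polo-like kinase genes Plk2 and Plk3, the phosphatase gene Ptprv and the growth regulator gene Cgref1. Plk2 was the most variable of the 33 genes, at 9.54, 9.66, 9.23 and 9.15 in cKO and 9.63, 9.65, 9.94 and 9.04 in WT.

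**Figure D2:**
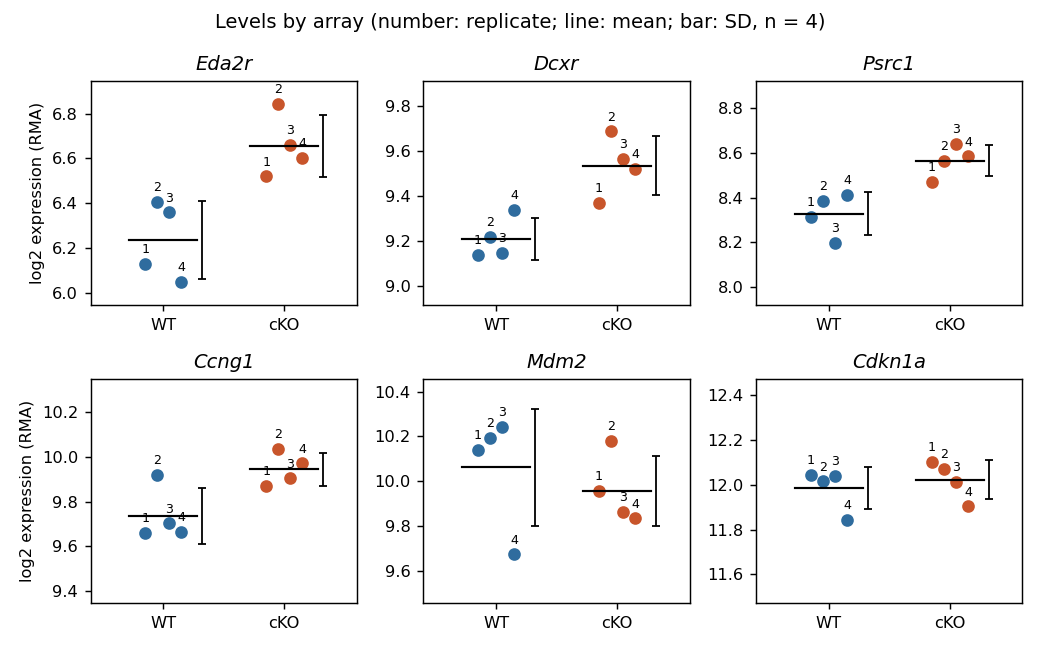
Levels (log2 expression, RMA) of 5 p53 target genes and of Cdkn1a on each array, with the replicate number beside each point, the group mean as a line and the SD as a bar (n = 4 per group); each panel spans 1 log2 unit. Eda2r, Dcxr and Psrc1 have no overlap between groups, Ccng1 overlaps through WT 2, and Mdm2 overlaps through cKO 2 and WT 4.

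The 11 measured genes of apoptosis and death receptors all stood above 0, with changes from 0.03 to 0.42 and a median of 0.08, and none passed. With single arrays left out, 4 of them (Pmaip1, Tnfrsf10b, Apaf1 and Phlda3) turned below 0 at least once, and without both cKO 2 and WT 4 Pmaip1, Tnfrsf10b and Apaf1 stood at -0.01, -0.05 and -0.03. Eda2r, an X-linked gene for a receptor of the tumour necrosis factor family that binds ectodysplasin A2, had the largest change of all 33 genes. It read 6.52, 6.84, 6.66 and 6.60 in cKO and 6.13, 6.41, 6.36 and 6.05 in WT. The cKO arrays lay above all WT arrays, with cKO 2 the highest and WT 4 the lowest of the 8. The change was 0.42 (SE 0.10, 95% interval 0.21 to 0.63, 1.34-fold, limma adjusted p = 0.0963). Without both cKO 2 and WT 4 it was 0.29 (SE 0.08, limma adjusted p = 0.106), and without 1 array at a time it ran from 0.36 to 0.48. With array weights it passed (0.39, limma adjusted p = 0.0258), as 3.53% of all genes did. The weights were estimated from the spread of these same values around the group means. They were lowest for WT 4 (0.48) and cKO 2 (0.64) and highest for cKO 3 (3.14), so that they favour separation of the genotypes. Eda2r also passed with the replicate number as a block (limma adjusted p = 0.0232), where 0.825% of all genes did. The labels do not say that these numbers pair samples, so the block has no basis in them.

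Fas, the receptor of Fas ligand, read 6.06, 6.06, 6.11 and 5.98 in cKO and 5.89, 6.01, 5.83 and 5.91 in WT. WT 2 lay within the cKO range. The change was 0.14 (SE 0.05, limma adjusted p = 0.375). Bbc3, which encodes the BH3-only protein PUMA, read 8.32, 8.40, 8.28 and 8.01 in cKO and 8.18, 8.17, 7.95 and 7.79 in WT, with 3 of the 4 cKO arrays above every WT array and cKO 4 within the WT range. Its change was 0.23 (SE 0.11, limma adjusted p = 0.577) and 0.10 without both cKO 2 and WT 4. The other 8 genes stood between 0.03 and 0.14: Pmaip1, which encodes the BH3-only protein NOXA, Tnfrsf10b, the mouse TRAIL receptor, Apaf1, the scaffold of the apoptosome, the nuclease gene Aen, Ei24, the Akt inhibitor gene Phlda3, Trp53inp1 and the RNA-binding protein gene Zmat3.

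The 3 genes of DNA repair and nucleotide supply stood at 0.01 to 0.07 and did not pass. Polk encodes a polymerase that copies past bulky adducts. It read 8.05, 8.14, 8.05 and 7.95 in cKO and 8.08, 7.89, 7.95 and 8.00 in WT, with the groups fully mixed (0.07, SE 0.06, limma adjusted p = 0.851, and 0.04 without both cKO 2 and WT 4). Ddb2, a damage sensor of nucleotide excision repair, read 9.16, 8.65, 9.14 and 8.79 in cKO and 8.96, 8.69, 8.65 and 9.29 in WT. Here WT 4 was the highest array of all, which it was at no other of the 33 genes, and the change was 0.04 (SE 0.16) with all arrays and 0.27 (SE 0.12, limma adjusted p = 0.296) without both cKO 2 and WT 4. Its other probe set stood at -0.09. Rrm2b, a ribonucleotide reductase subunit that supplies nucleotides for repair, read 6.50, 6.57, 6.35 and 6.35 in cKO and 6.47, 6.43, 6.44 and 6.37 in WT (0.01, SE 0.06), with the WT arrays inside the cKO range. Its 3 other, lower probe sets stood at 0.12 to 0.25 and did not pass (lowest limma adjusted p = 0.740).

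Of the 5 measured genes of metabolism and redox balance, 4 stood above 0 and 1 below, and none passed. Dcxr, a reductase of dicarbonyl compounds and L-xylulose, read 9.37, 9.69, 9.57 and 9.52 in cKO and 9.14, 9.22, 9.14 and 9.34 in WT. The groups were separated by the small gap between cKO 1 and WT 4. The change was 0.33 (SE 0.07, 95% interval 0.16 to 0.49, 1.25-fold, limma adjusted p = 0.0944). Dcxr passed without WT 4 (0.37, limma adjusted p = 0.0481, where 1.46% of all genes passed) and without cKO 1 (0.38, adjusted p = 0.0490, where 0.807% did). These arrays bound the gap, so these p-values are not independent support for a difference. With any other single array left out Dcxr did not pass (limma adjusted p up to 0.304). It passed without both cKO 2 and WT 4 (0.32, adjusted p = 0.0440, where 2.55% did). With array weights it also passed (0.37, adjusted p = 0.00789, where 3.53% did). It is represented by 1 probe set.

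Sesn1, the gene of sestrin 1, which restrains the growth kinase mTORC1, read 9.57, 9.08, 9.46 and 9.39 in cKO and 9.24, 9.11, 8.89 and 9.33 in WT. cKO 2 was as low as the WT arrays. The change was 0.23 (SE 0.12, limma adjusted p = 0.630), with other probe sets at 0.26 and 0.21, and it was 0.39 (SE 0.09, adjusted p = 0.0687) without both cKO 2 and WT 4. Dglucy, the D-glutamate cyclase gene, read 6.90, 6.91, 6.78 and 6.81 in cKO and 6.61, 6.59, 6.80 and 6.78 in WT, with WT 3 and WT 4 at the level of the lower cKO arrays (0.15, SE 0.06, limma adjusted p = 0.473). The related sestrin gene Sesn2 stood at 0.09 and Tigar, which encodes a sugar bisphosphatase that diverts glucose to the pentose phosphate pathway, at -0.10.

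Of the 3 genes left, Rps27l, a ribosomal protein gene whose product binds MDM2, read 10.77, 10.80, 10.83 and 10.97 in cKO and 10.64, 10.80, 10.70 and 10.70 in WT, with WT 2 inside the cKO range. The change was 0.13 (SE 0.06, limma adjusted p = 0.516). Its other probe sets stood at 0.13 and 0.14 but carry the suffix _x_at, so that transcripts of its close relative Rps27 may contribute. The efflux pump gene Abcb1a read 4.43, 4.63, 4.52 and 4.56 in cKO and 4.40, 4.46, 4.53 and 4.48 in WT, low levels not shown to lie above background (0.07, SE 0.05, and 0.04 without both cKO 2 and WT 4). Epha2, an ephrin receptor gene of keratinocytes, read 9.68, 9.86, 9.59 and 9.36 in cKO and 9.86, 9.71, 9.82 and 9.26 in WT. Its groups overlapped over nearly their whole range (-0.04, SE 0.14).

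The further probe sets of these genes mostly had the same sign. Of the 33 genes, 17 had more than 1 probe set, and 23 of the 25 further probe sets had the sign of the representative one. None of the 58 probe sets passed in the fit over all 45037 probe sets, where 0.466% did (lowest limma adjusted p = 0.151).

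Much of the variation among these genes lay between arrays of 1 group. WT 4 was the lowest of the 8 arrays at 12 of the 33 genes (36.4%), against 16.0% of all genes. These were Mdm2, Plk2, Plk3, Zfp365, Bbc3, Pmaip1, Tnfrsf10b, Eda2r, Aen, Ei24, Sesn2 and Epha2. cKO 2 was the highest array at 9 genes (27.3%), against 9.62% of all genes. The mean level of the 33 genes was 8.35, 8.35, 8.36 and 8.29 on cKO arrays 1 to 4 and 8.26, 8.31, 8.26 and 8.17 on WT arrays 1 to 4. The groups overlapped, since cKO 4 read below WT 2, and the difference between group means was 0.08 with all arrays, 0.06 without WT 4 and 0.05 without both cKO 2 and WT 4. The median within-group SD of the 33 genes was 0.12, against 0.09 for all genes. This comparison was not matched for level, since 29 of the 33 lay in the upper 50% of all genes by mean.

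**Figure D3:**
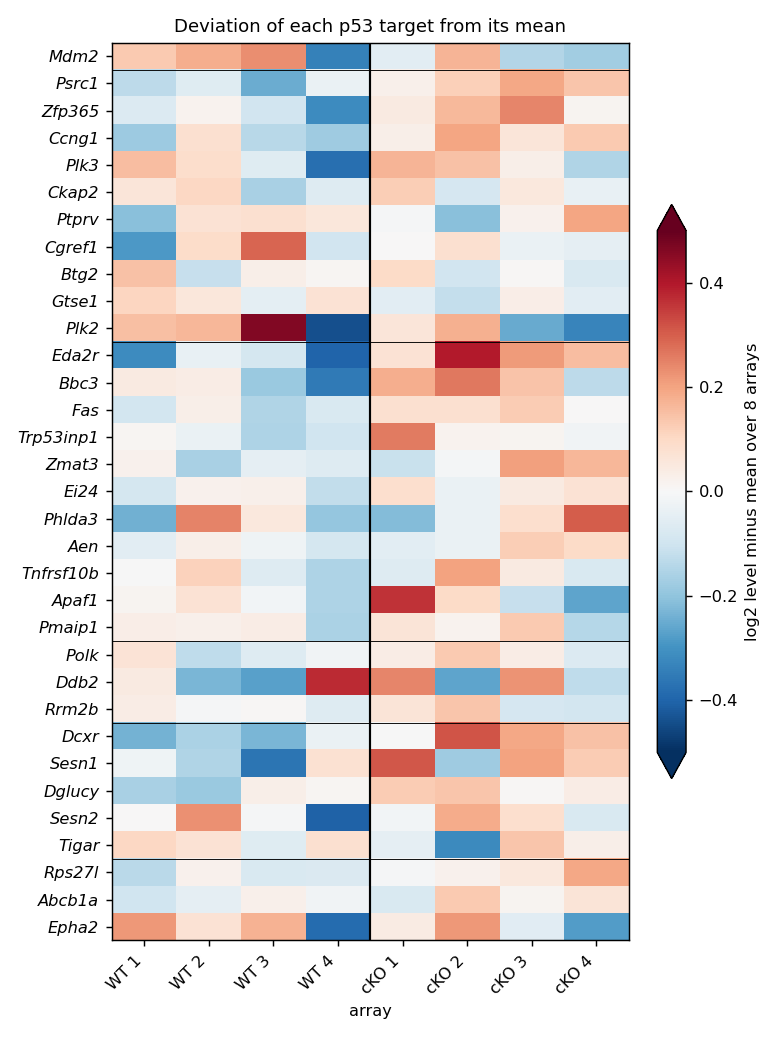
Deviation of each of the 33 genes from its own mean over the 8 arrays (colour, log2 units; red above and blue below, with the scale ending at 0.5 on either side), with WT arrays left and cKO arrays right of the vertical line and roles parted by horizontal lines. WT 4 is blue at many genes where WT 1 to WT 3 are pale or red, such as Mdm2, Plk2, Plk3, Sesn2 and Epha2, and red at Ddb2.

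Leaving out both arrays that stood apart moved the genes in different directions. Mdm2, Plk2 and Epha2 went to -0.31, -0.43 and -0.25 (limma adjusted p = 0.0321, 0.105 and 0.177), while Sesn1 and Ddb2 went to 0.39 and 0.27. Plk3 and Sesn2 turned from 0.10 and 0.09 to -0.05 and -0.08. Psrc1 and Dcxr moved little, to 0.26 and 0.32. Plk2, Plk3, Ddb2, Epha2 and Sesn2 are named here after their values were seen. With this setting 2 of the 33 genes passed, Dcxr higher and Mdm2 lower, where 2.55% of all genes did. WT 4 also read lowest at the antigen presentation genes Cd74 (7.26 against 8.01 to 9.16 on the other arrays) and H2-Aa (7.65 against 8.33 to 9.11). The mean of the 11 leukocyte markers was therefore lowest there, at 4.93 against 5.08 to 5.24, but their median deviation was not, at -0.03 against -0.05 on WT 1, and Cd3e, Lyz2, Csf1r and Cpa3 were not low on WT 4. None of the 11 passed the test between genotypes (limma), where 2 had an unadjusted p under 0.05 (1 higher and 1 lower in cKO), against 9.33% of all genes. Their changes ran from -0.10 to 0.49. The part of antigen-presenting cells in the levels above was not tested, and in tissue of mixed cells fewer cells of a type and less RNA per cell cannot be told apart. The mean of the 13 keratinocyte markers lay between 11.28 and 11.38 on all 8 arrays.

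**Figure D4:**
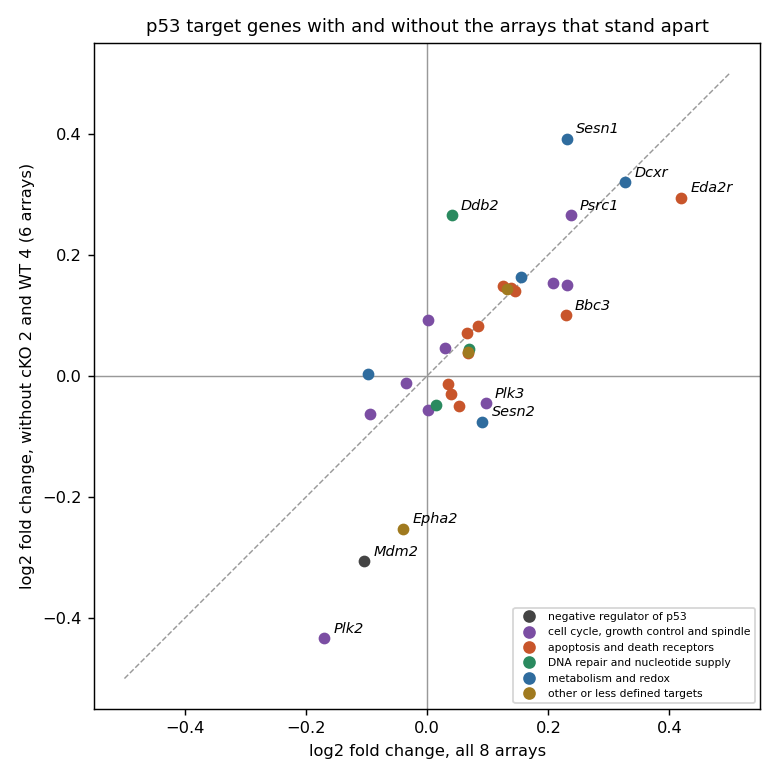
Change of each of the 33 genes (log2, cKO minus WT) with all 8 arrays (horizontal axis) and without cKO 2 and WT 4 (vertical axis, 6 arrays), coloured by role; the dashed line marks equal values. Mdm2, Plk2 and Epha2 lie below the dashed line at -0.31, -0.43 and -0.25, Sesn1 and Ddb2 above it at 0.39 and 0.27, and Dcxr close to it at 0.32.

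The wider pathway was examined with lists of further targets, of regulators of p53 and of the apoptosis machinery. Of 31 further p53 targets, 1 fell, 0 rose and 30 did not pass (median 0.02), where 0.187% of all genes fell and 0.79% rose. Changes above 0 were found at 18 of these 31 genes (58.1%) and changes below 0 at 13. This share was close to that of all genes (54.8%), while 81.8% of the measured genes of the first list lay above 0. The lean to the positive side was thus smaller in these further targets. The difference between the lists was not tested. The gene that fell was Igfbp3, a secreted binder of insulin-like growth factors known as a p53 target in human cells, at 10.25, 9.80, 9.94 and 9.78 in cKO and 10.90, 10.86, 11.02 and 11.01 in WT. All cKO arrays lay below all WT arrays, and the change was -1.01 (SE 0.10, limma adjusted p = 0.00133). Trp53i11 stood at 0.28 (SE 0.07, adjusted p = 0.162) and the carnitine palmitoyltransferase gene Cpt1c at 0.39 (SE 0.14, adjusted p = 0.382). At Cpt1c WT 4 read 8.42, above all cKO arrays (8.26 to 8.41), and the other WT arrays read 7.68 to 7.88. Cpt1c passed without WT 4 (0.55, limma adjusted p = 0.00389, where 1.46% of all genes passed). Without both cKO 2 and WT 4 it also passed (0.57, limma adjusted p = 0.00795, where 2.55% did). Since WT 4 is the array through which the groups overlapped, these p-values are not independent support for a difference.

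None of 34 genes of the p53 family and its upstream regulators passed in the gene table (limma), where 2 had an unadjusted p under 0.05, against 9.33% of all genes, and the median was 0.01. Ehmt2 is among them through the probe set that did not differ. The checkpoint kinase gene Chek1 stood at -0.45 (SE 0.15, adjusted p = 0.342; -0.15 over the mean of its probe sets), Cdkn2a, whose product p19Arf blocks MDM2, at 0.21 (SE 0.08, adjusted p = 0.402), and Kmt5a, a methyltransferase of histone H4 and of p53, at -0.12 (SE 0.06, adjusted p = 0.593). Chek1 read lowest on cKO 3 and cKO 4 (5.79 and 5.70), but WT 4 (5.99) lay within the cKO range. Cdkn2a read 4.47 to 4.83 on all arrays, not shown to lie above background.

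None of 26 further genes of the apoptosis machinery passed (limma), where 2 had an unadjusted p under 0.05, against 9.33% of all genes, and the median was 0.02. Casp8, the initiator caspase that death receptors activate, read 8.73, 8.65, 8.73 and 8.64 in cKO and 8.47, 8.56, 8.46 and 8.52 in WT. Its groups did not overlap, and the change was 0.18 (SE 0.05, limma adjusted p = 0.136). Diablo, which relieves caspases of their inhibitors, stood at 0.14 (SE 0.06, adjusted p = 0.460) and the survival gene Bcl2 at 0.27 (SE 0.12, adjusted p = 0.558). At Bcl2 WT 4 read 8.04 and the other WT arrays 7.54 to 7.71, and without both cKO 2 and WT 4 the change was 0.41 (limma adjusted p = 0.0780).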

How the data were processed

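The authors deposited 1 table of log2 expression values per probe set from 8 single-colour arrays. It was made with RMA, per the submitters' processing notes; no source used here gives its version or options. Base 2 was inferred from the values, which run from 3.06 to 13.0. Array medians ran from 5.72 to 5.80, so that the columns are close to one another but not identical after the authors' normalisation. Scanner files were not used here.

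Of 45141 rows 104 control probe sets were left out. The platform annotation names 1 gene for 28898 probe sets, several for 551 and none for 15588. Symbols were updated by Entrez number for 28689 probe sets (RefSeq, GRCm38.p6), which gave 17097 genes, each represented by its probe set with the highest mean. No filter on dim genes was applied.

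The 4 cKO and 4 WT arrays, grouped by their labels, were compared with limma 3.58.1 in R 4.3.3 (lmFit and eBayes, two-sided, Benjamini-Hochberg adjustment over all genes). Arrays give no read depth, so their number limits the precision. The fitting script was tested on simulated data. It recovered 30.8% of simulated log2 changes of 0.25 and 82% of those of 0.5, with 6.47% false calls. A gene with a small change that did not pass may therefore still differ. Plots were drawn with matplotlib 3.10.9.

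The members, gene lists and rules were chosen with earlier results of these data known. The genes given in full are Mdm2, Ccng1 and, in each role, the 3 with the smallest p. Outside the members these are Ehmt2, Cdkn1a and the 3 with the smallest p in each pathway list. Others named were chosen after their values were seen. The alternatives changed the normalisation, centring, prior, weights and threshold, dropped dim genes or single arrays, took probe sets by other rules, or added the replicate number as a block term.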

Additional observations from a re-analysis of the deposited data

Results flagged for a closer look

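In groups of 4 arrays, 92 sets of values were checked for an array whose distance from its nearest neighbour, divided by the group's range, exceeded Dixon's 95% critical value, which chance gives in about 1 of 20 sets; 8 were found. WT 4 was the low array at Pmaip1 (10.23 against 10.41 to 10.43, ratio 0.940) and at Cdkn1a (11.84 against 12.01 to 12.04, ratio 0.853). Among the other WT arrays, WT 2 was high at Ccng1 (9.92 against 9.66 to 9.70, ratio 0.837) and WT 1 low at Ptprv (6.00 against 6.27 to 6.29, ratio 0.925). Among the cKO arrays, cKO 1 was high at Trp53inp1 (10.95 against 10.68 to 10.71, ratio 0.877) and low at Cdkn2a (4.54 against 4.82 to 4.83, ratio 0.991), and cKO 3 was high at Kmt5a (10.30 against 10.23 to 10.24, ratio 0.861). The mean of the 33 genes, taken as deviation from each gene's own mean, was low on cKO 4 (-0.01 against 0.05 to 0.06, ratio 0.888).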

How the results depend on the processing

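The count of p53 target genes past the threshold was 0 with limma in the gene table and also with filters on dim genes, quantile normalisation, array centring, a prior with trend, both other probe set rules and all probe sets. It was 1 with the replicate block (Eda2r), 3 with array weights (Dcxr, Eda2r and Psrc1), 2 without both cKO 2 and WT 4 (Dcxr and Mdm2), 2 at an adjusted p under 0.1 (Dcxr and Eda2r), and 0 to 1 with single arrays left out. Array weights, like leaving out cKO 2 and WT 4, favour separation of the genotypes. The median change of the 33 genes moved by less than the spread between replicates under all settings and stayed positive (0.03 to 0.09), as did the difference of the per-array means (0.05 to 0.10). That spread is similar in size to the changes themselves, so this is a weak check. With centring, for example, the median went from 0.07 to 0.03. The genes called among all genes numbered 167, against 69 in the upper 50% by mean, 604 with array weights, 436 without both cKO 2 and WT 4, 280 at an adjusted p under 0.1 and 81 to 250 with single arrays left out (81 without cKO 3, 84 without WT 3, 88 without WT 1, 98 without cKO 2). Further p53 targets past the threshold numbered 3 with array weights, 4 without both arrays (Igfbp3, Cpt1c, Gadd45a and Xpc) and 1 to 2 with single arrays left out (Trp53i11 without cKO 4, Cpt1c without WT 4). Among p53 regulators 1 passed with array weights (Chek1), and 1 with the highest WT mean, the mean of probe sets or all probe sets (Ehmt2, through its other probe set). Of apoptosis genes 1 passed with array weights (Casp8) and 1 without both arrays (Fadd). The cause of these moves was not tested. Changes near 0 turned sign: Rrm2b to -0.0082 with quantile normalisation, -0.0187 with centring, -0.0446 with array weights and -0.0487 without both arrays; Cdkn1a to -0.000395 with array weights and -0.0265 without both arrays; Ddb2 to -0.0257 with the mean of its probe sets. With single arrays left out Rrm2b ran from -0.0290 to 0.0470, Ddb2 from -0.0429 to 0.171, Epha2 from -0.174 to 0.0463 and Cdkn1a from -0.0108 to 0.0762. The Ehmt2 probe set that did not differ ran from -0.0302 to 0.0449, and the other from -3.03 to -2.78.

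Arrays with the same replicate number did not deviate together throughout: the correlation of their deviations from the group means was 0.139, 0.176, -0.591 and 0.308, so the numbers were not taken as pairs. With the replicate block 141 genes passed, and the change of Eda2r was 0.42. The number of arrays limits the precision: the SE of a change was 0.05 to 0.18 among the 33 genes.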
